A study of Homo sapiens with 4 samples.

Results

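The genes described here run cholesterol synthesis, its control by SREBP2, cholesterol uptake and cholesterol export. They are 34 genes chosen by symbol from a named list, all 34 of which have a row among the 25283 rows of the count table, and 33 of which passed the filter on low counts. RNA was sequenced from cells labelled as neurons, made from the established human embryonic stem cell line H1 by way of neural progenitors and matured in a commercial medium. There were 2 libraries labelled wild type with an empty vector (control) and 2 libraries labelled snRNA U1 overexpression (U1_OE), all taken 36 h after lentiviral vector was given. U1 snRNA is the RNA core of the splicing particle that pairs with 5′ splice sites. The treatment text names the overexpression vector for both groups, so the groups rest on the sample titles and genotype labels. Nothing in the labels says that a group's libraries are separate cultures. Every p-value therefore measures the spread between these libraries, which may be technical.

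Cholesterol is built from acetyl-CoA through mevalonate, isoprenoid diphosphates, squalene and a chain of sterols. When membranes of the endoplasmic reticulum run short of sterol, SCAP carries SREBP2 to the Golgi, where it is cut and freed to switch on the synthesis genes, and INSIG proteins hold the pair back when sterol is plentiful. Oxysterols activate the liver X receptors (LXR), which switch on the exporters ABCA1 and ABCG1 and the ligase MYLIP that removes lipoprotein receptors. The brain makes nearly all of its own cholesterol, because lipoproteins do not cross the blood-brain barrier, and much of the supply of mature neurons comes from glia.

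The labelled cell type was set against marker lists. All 20 of 20 mesenchymal markers reached 10 CPM (counts put on one common total by TMM scaling) in every library, against 3 of 16 measured pan-neuronal genes, and the neuronal markers DCX and STMN2 had 0 counts in at least 1 library each. The libraries held 16713505 to 19057423 counts, so counting error was small for most members, and the number of libraries limited precision. Control replicate 1 stood highest for synthesis genes. The median of the set and the values of several members are also given without it, but not those of every gene.

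Most of the 20 synthesis members were lower on average in the U1_OE libraries, though no single gene passed the main test. The 2 control libraries also differed from each other for most of these genes. These members were chosen with earlier results of these data known. The CPM of the 20 synthesis members summed to 2388 and 1865 in control, against 1418 and 1714 in U1_OE. Both U1_OE sums lay below both control sums. Of the 20, 17 had a negative log2 fold change (U1_OE over control), where 50.7% of all 17317 tested genes did, and the median was -0.34 against -0.01 for all tested genes, or 79.1% of the control level. In 10 of the 20 both U1_OE libraries lay below both control libraries, which was so for 22.0% of all tested genes. Over all 33 tested members 12 were lower and 2 higher without overlap, where 19.7% of all tested genes were higher in that way. Among the 7505 tested genes within the range of mean CPM of the 20 synthesis members, 44.4% were negative and 19.3% were lower without overlap.

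By the quasi-likelihood test of edgeR, adjusted after Benjamini and Hochberg over all genes at 0.05, no member passed, and neither did any of the 17317 tested genes (0%). At an unadjusted p under 0.05, 5 members were lower (HMGCS1, TM7SF2, MSMO1, HSD17B7 and NR1H3) and 1 was higher (ABCA1), against 4.72% and 4.36% of all tested genes. Without control replicate 1 the lower ones were 3, HMGCS1, TM7SF2 and MYLIP, and without U1_OE replicate 1 they were 3, HMGCS1, TM7SF2 and NPC2. Without control replicate 2 they numbered 5 and without U1_OE replicate 2 they numbered 7. DESeq2 and edgeR's likelihood ratio test each called 2 members, HMGCS1 and TM7SF2, both lower, and limma-voom called 0. DESeq2 called 1.08% of all genes, 0.470% as lower and 0.614% as higher, and the likelihood ratio test called 1.88% of genes in either direction. Lower RNA per cell and fewer cells of a type that expresses these genes cannot be told apart in bulk RNA.

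**Figure D1:**
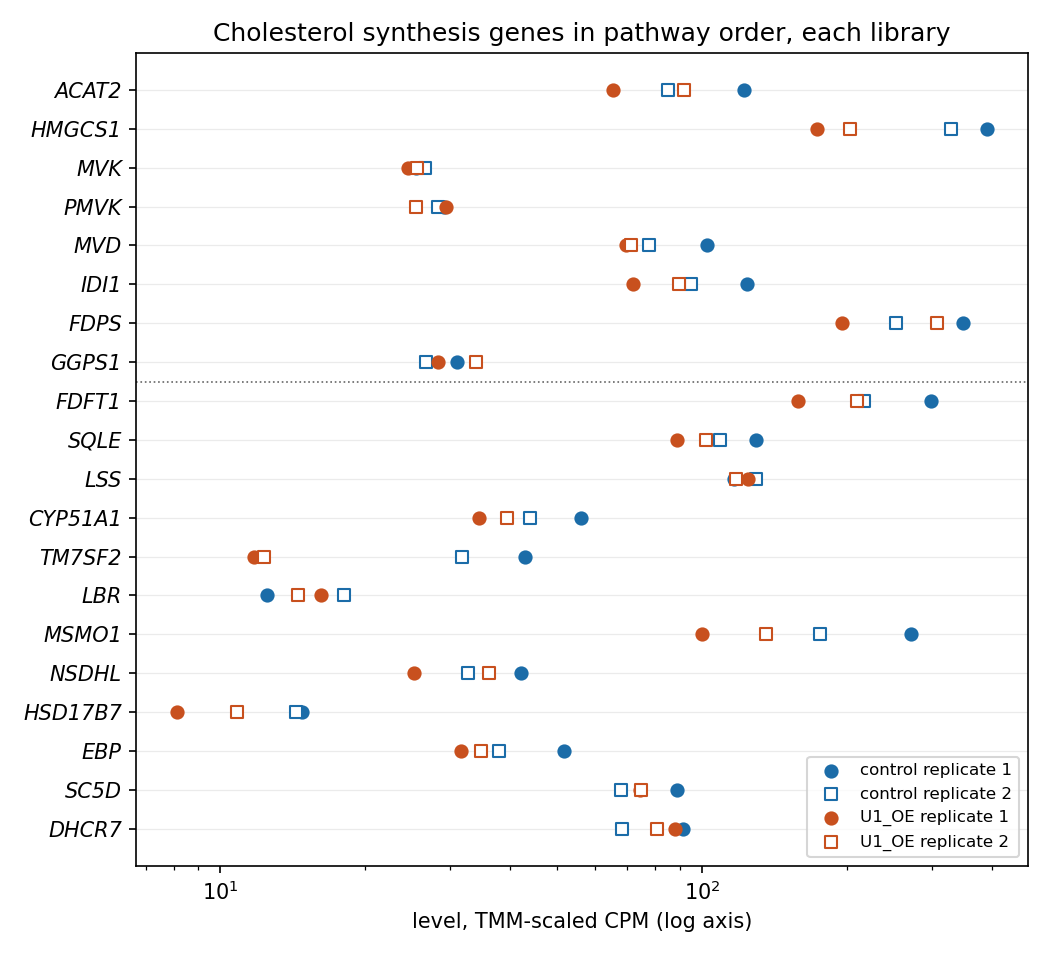
Level of each synthesis gene in each library, in pathway order from top to bottom, as TMM-scaled CPM on a log axis; the dotted line divides the steps up to isoprenoid diphosphates from the squalene and sterol steps. HMGCS1, MSMO1 and TM7SF2 have both control libraries (blue) to the right of both U1_OE libraries (orange), while MVK, LSS and DHCR7 overlap.

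The difference was graded over the libraries and did not fall into 2 tight groups. Each gene's log2 CPM was set against its mean over the 4 libraries, and the median over the 20 synthesis genes was 0.35 in control replicate 1, 0.02 in control replicate 2, -0.29 in U1_OE replicate 1 and -0.06 in U1_OE replicate 2. Control replicate 2 and U1_OE replicate 2 thus lay close together, between the other 2 libraries. Control replicate 1 was above control replicate 2 for 17 of the 20 genes, and U1_OE replicate 1 was below U1_OE replicate 2 for 16 of the 20. Of all 17317 tested genes, 8537 and 8724 showed these orders. As many of the 20 genes thus differed in 1 direction between the controls as had a negative log2 fold change between groups. The median log2 fold change was -0.14 without control replicate 1, -0.51 without control replicate 2, -0.19 without U1_OE replicate 1 and -0.52 without U1_OE replicate 2. In each of these 4 smaller comparisons 16 or 17 of the 20 genes had a negative value.

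**Figure D2:**
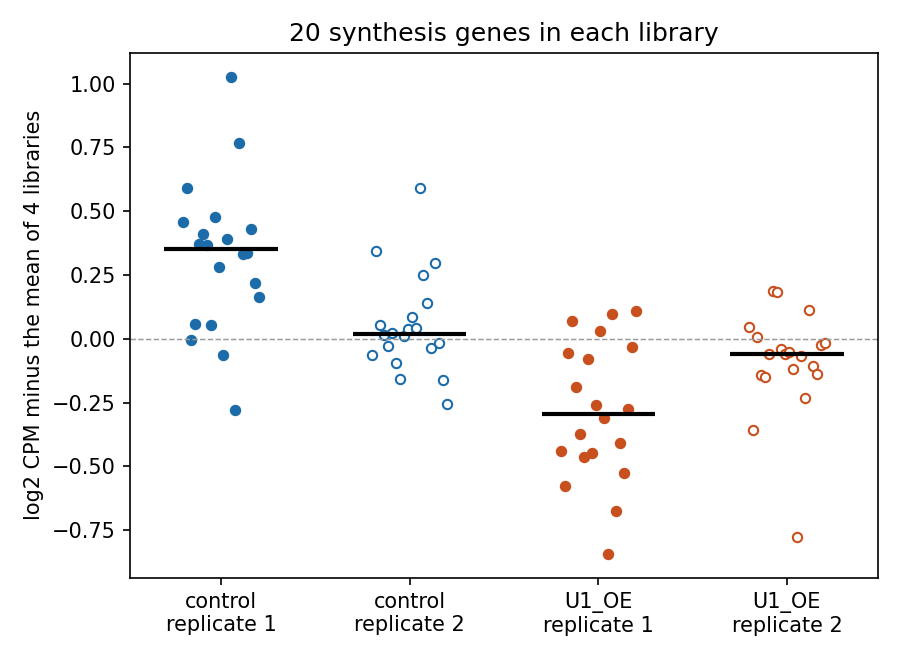
Each point is 1 of the 20 synthesis genes, as log2 CPM minus that gene's mean over the 4 libraries, and black bars are medians. The medians run from 0.35 in control replicate 1 to -0.29 in U1_OE replicate 1, with control replicate 2 and U1_OE replicate 2 near 0.

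The first steps make mevalonate and the isoprenoid diphosphates. HMGCS1, the cytosolic synthase that joins acetoacetyl-CoA and acetyl-CoA into HMG-CoA, had 390.2 and 329 CPM in control and 173 and 202 CPM in U1_OE libraries. The groups lay well apart, with every control value above every U1_OE value. Its log2 fold change was -0.94 ± 0.16 (standard error; edgeR unadjusted p = 0.00241, adjusted p = 0.459), or 52.3% of the control level. DESeq2 called it at -0.92 ± 0.19 (adjusted p = 0.000492). With the replicate number as a block, DESeq2 gave it an adjusted p of 0.0939 and no call. Across the fits with 1 library left out, the edgeR value stayed between -1.06 and -0.78. Leaving out control replicate 1 or control replicate 2 ended the DESeq2 call (adjusted p = 0.611 and 0.111). HMGCS1 shares 15.0% of its exon bases with a gene on the other strand.

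The other mevalonate genes differed less. IDI1, the isomerase of isopentenyl diphosphate, had 124 and 94.8 CPM in control and 72.0 and 89.5 CPM in U1_OE libraries. MVD, the decarboxylase that yields isopentenyl diphosphate, had 102 and 77.6 CPM in control and 69.4 and 71.3 CPM in U1_OE libraries. In both genes control replicate 1 was the highest library, and control replicate 2 lay only just above U1_OE replicate 2. Their log2 fold changes were -0.44 ± 0.20 and -0.35 ± 0.18 (edgeR adjusted p = 0.592 and 0.619), and -0.21 and -0.12 without control replicate 1. ACAT2, the thiolase of the opening step, had 122 and 85.0 CPM in control and 65.3 and 91.6 CPM in U1_OE libraries, so its groups overlapped. FDPS, which makes farnesyl diphosphate, overlapped as well, with 348 and 252 CPM against 195 and 307 CPM. The kinases MVK and PMVK stayed within 24.6 to 26.5 CPM and 25.4 to 29.4 CPM over all 4 libraries. GGPS1, which leads to geranylgeranyl groups instead of sterol, had 26.8 to 33.9 CPM and a log2 fold change of 0.11 ± 0.17. Of these 8 genes 7 were negative and 3 were lower without overlap, against 50.7% and 22.0% of all tested genes. ACAT2 and GGPS1 share 52.3% and 41.0% of their exon bases with other annotated genes, TCP1 and ARID4B among them, and FDPS and IDI1 share 18.6% and 14.8% with antisense genes. Whether the counting used strand is not stated, so these values are uncertain.

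Of the 12 squalene and sterol genes 10 were negative and 7 were lower without overlap, against 50.7% and 22.0% of all tested genes. TM7SF2, a sterol C14 reductase of the endoplasmic reticulum, showed the lowest log2 fold change of all tested members. It had 43.0 and 31.8 CPM in control and 11.8 and 12.3 CPM in U1_OE libraries. The U1_OE libraries were nearly equal and far below both controls. The log2 fold change was -1.63 ± 0.20 (edgeR unadjusted p = 0.000513, adjusted p = 0.459), which is 32.2% of the control level, and it ranged from -1.84 to -1.38 with 1 library left out. DESeq2 called it (adjusted p = 6.28e-05), but not once control replicate 1 was left out (adjusted p = 0.449). TM7SF2 lies at chr11:65111845-65116384 (GRCh38, plus strand), and 0.469% of its exon bases overlap another gene, VPS51.

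LBR, the lamin B receptor of the inner nuclear membrane, carries the same C14 reductase activity in a different compartment. It had 12.5 and 18.0 CPM in control and 16.2 and 14.5 CPM in U1_OE libraries. Its log2 fold change was 0.01 ± 0.24. Its U1_OE values both lay between its control values. Per kb of exon, TM7SF2 stood at 12.6 and 9.33 CPM and LBR at 2.37 and 3.43 CPM in control. In the U1_OE libraries the levels per kb were 3.45 and 3.61 CPM for TM7SF2 and 3.08 and 2.75 CPM for LBR. TM7SF2 therefore made up 84.2% and 73.1% of the summed level of both genes in control libraries and 52.8% and 56.8% in U1_OE libraries. The sign of the LBR value turned under 4 of the other settings, so no direction is given for it.

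**Figure D3:**
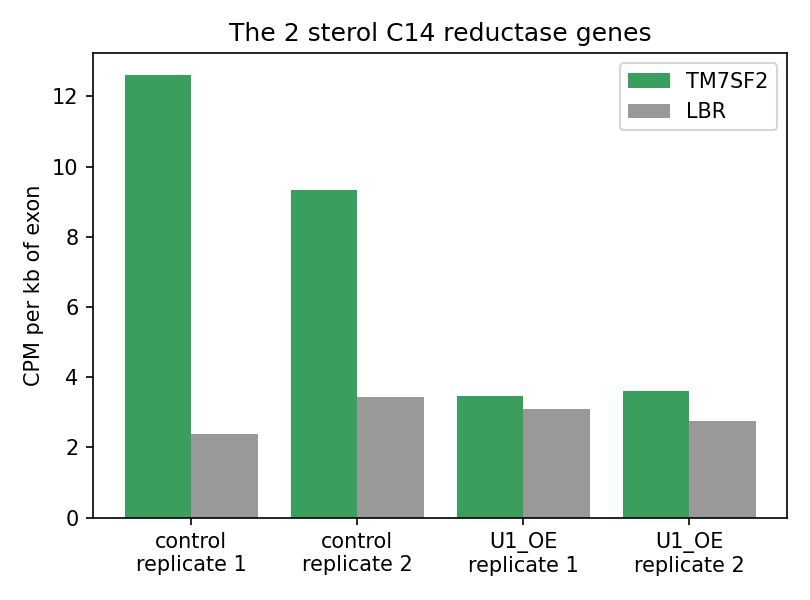
Bars are CPM per kb of exon for the sterol C14 reductase genes TM7SF2 (green) and LBR (grey) in each library. TM7SF2 stands at 12.6 and 9.33 in control and at 3.45 and 3.61 in U1_OE libraries, while LBR lies between 2.37 and 3.43.

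MSMO1, the oxidase that removes methyl groups from the sterol ring, had 271 and 176 CPM in control and 99.95 and 136 CPM in U1_OE libraries. All 4 values were spread apart, with both U1_OE libraries below both controls. Its log2 fold change was -0.92 ± 0.28 (edgeR unadjusted p = 0.0210, adjusted p = 0.492), but -0.55 without control replicate 1, and DESeq2 gave it an adjusted p of 0.0738. HSD17B7, the ketoreductase that acts after MSMO1 and NSDHL, had 14.8 and 14.4 CPM in control and 8.13 and 10.9 CPM in U1_OE libraries. Its control values nearly coincided, and the log2 fold change was -0.62 ± 0.22 (edgeR unadjusted p = 0.0362, adjusted p = 0.521).

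FDFT1, squalene synthase, had 299 and 217 CPM in control and 158 and 209 CPM in U1_OE libraries. SQLE, squalene epoxidase, had 129 and 109 CPM in control and 88.8 and 102 CPM in U1_OE libraries. CYP51A1, the lanosterol C14 demethylase, had 56.0 and 44.0 CPM against 34.4 and 39.4 CPM, and EBP, the sterol isomerase, 51.6 and 37.8 CPM against 31.6 and 34.8 CPM. All 4 genes showed the same layout, with control replicate 1 highest, U1_OE replicate 1 lowest and the remaining libraries near each other. Their log2 fold changes were -0.49 ± 0.23, -0.32 ± 0.16, -0.44 ± 0.18 and -0.43 ± 0.19, with edgeR adjusted p from 0.561 to 0.613. Without control replicate 1 they were -0.22, -0.17, -0.23 and -0.17. CYP51A1 shares 83.2% of its exon bases with other annotated genes, the antisense gene CYP51A1-AS1 among them, and is uncertain for that reason.

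In the remaining sterol genes the groups overlapped. LSS, which closes the ring to lanosterol, had 117 and 129 CPM in control and 125 and 118 CPM in U1_OE libraries. NSDHL, the C4 decarboxylase, had 25.2 to 42.0 CPM, SC5D, the sterol C5 desaturase, 67.9 to 88.5 CPM, and DHCR7, the reductase of the last step, 68.2 to 91.5 CPM over the 4 libraries. The log2 fold change of NSDHL was -0.28 ± 0.24, and those of LSS, SC5D and DHCR7 were -0.02 ± 0.13, -0.07 ± 0.17 and 0.08 ± 0.18.

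**Figure D4:**
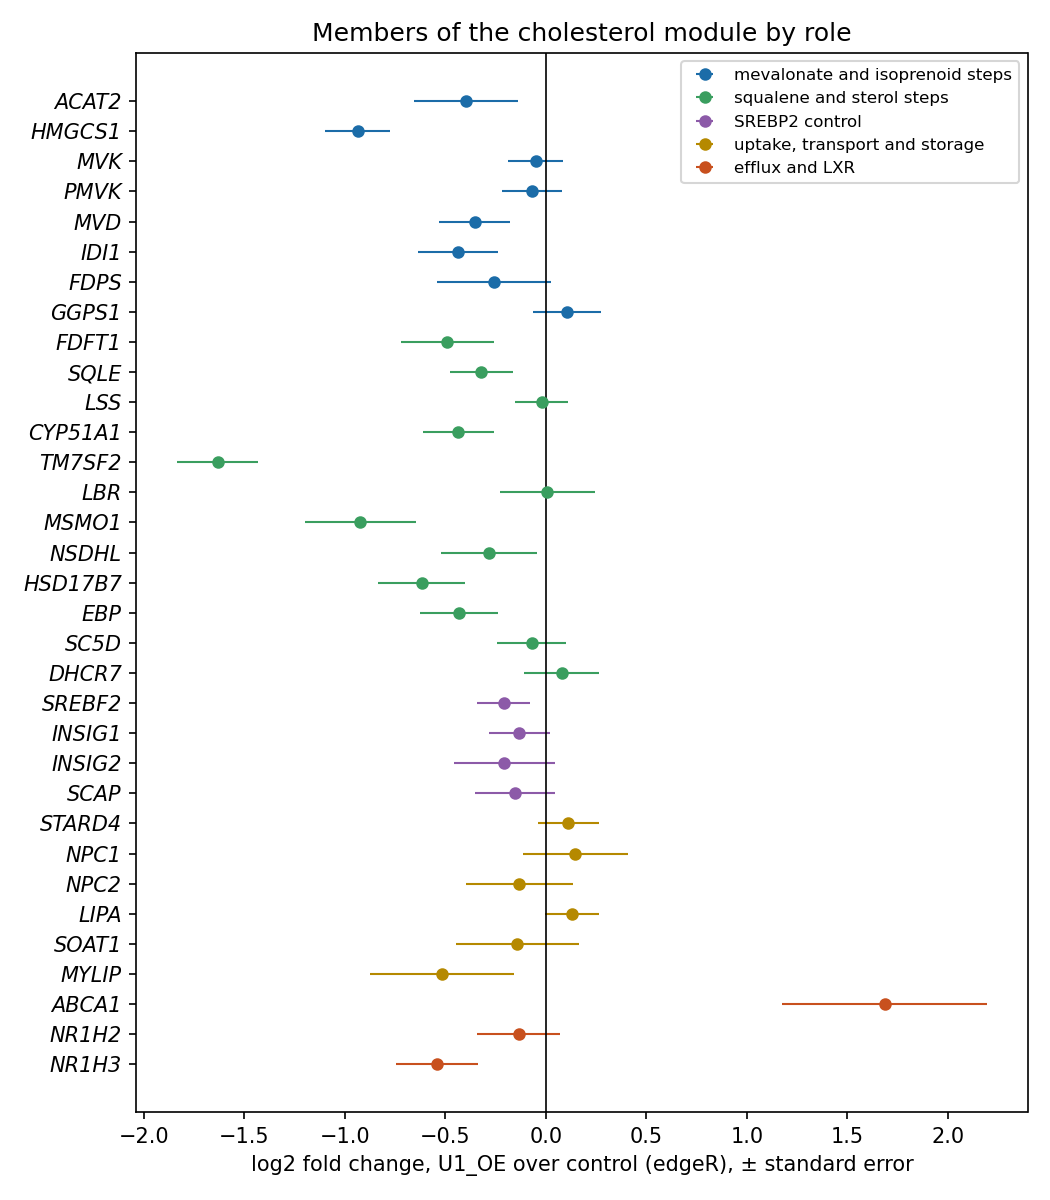
Points are edgeR log2 fold changes (U1_OE over control) and bars are ± standard errors for the 33 tested members, coloured by role. TM7SF2, HMGCS1 and MSMO1 lie farthest to the left at -1.63, -0.94 and -0.92, ABCA1 lies far to the right at 1.69, and the control genes of SREBP2 sit near 0.

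The genes that control SREBP2 had log2 fold changes from -0.21 to -0.13, and none had an unadjusted p under 0.05. SREBF2, which encodes SREBP2, had 78.2 and 81.0 CPM in control and 72.5 and 65.1 CPM in U1_OE libraries. Its log2 fold change was -0.21 ± 0.13 (edgeR adjusted p = 0.687). Its groups did not overlap, and the gap was small. INSIG1, itself a target of SREBP2, had 89.6 and 80.8 CPM in control and 71.0 and 84.5 CPM in U1_OE libraries. That overlap left a log2 fold change of -0.13 ± 0.15. INSIG2 had 16.8 and 11.8 CPM against 13.7 and 11.1 CPM, and SCAP 28.4 and 31.7 CPM against 31.2 and 22.9 CPM. Both overlapped, at -0.21 ± 0.25 and -0.16 ± 0.20. All 4 values were negative, but INSIG2 was 0.095 without control replicate 1 and SCAP 0.047 without U1_OE replicate 2.

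The uptake, transport and storage genes showed no common direction, with 3 of 6 negative and a median log2 fold change of -0.01. STARD4, a carrier of sterol between membranes that SREBP2 also activates, had 87.8 and 79.1 CPM in control and 82.8 and 97.6 CPM in U1_OE libraries. NPC1, the lysosomal membrane protein that passes cholesterol out, had 22.8 to 35.9 CPM, and its soluble partner NPC2 had 1015 and 912 CPM in control and 1095 and 663 CPM in U1_OE libraries. LIPA, the acid lipase that frees cholesterol from its esters, had 110.3 and 100.7 CPM against 120.6 and 110.4 CPM, just without overlap, with a log2 fold change of 0.13 ± 0.13. SOAT1, which esterifies cholesterol for storage, had 14.3 to 26.0 CPM, and both extremes came from U1_OE libraries. MYLIP, the ligase for lipoprotein receptors, had 47.4 CPM in control replicate 2 and 23.1 to 25.9 CPM in the other 3 libraries. Its log2 fold change of -0.52 ± 0.36 rested on that library and was 0.094 without it.

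Among the export genes, ABCA1, the pump that loads cholesterol onto apolipoproteins, was higher in U1_OE libraries. It had 1.82 and 4.64 CPM in control and 12.7 and 8.23 CPM in U1_OE libraries. The groups did not overlap, although the values within each differed widely. Its log2 fold change was 1.69 ± 0.51 (edgeR unadjusted p = 0.0218, adjusted p = 0.492; DESeq2 adjusted p = 0.213), or 3.22-fold, and with 1 library left out it ranged from 1.19 to 2.51. ABCG1, its partner in export, did not pass the filter, with 0 and 2.82 deposited counts in control and 6.18 and 3.39 in U1_OE libraries, too few for a comparison. NR1H3 (LXR alpha) had 8.59 and 9.46 CPM against 6.28 and 6.13 CPM, with each pair nearly equal and a log2 fold change of -0.54 ± 0.20 (edgeR unadjusted p = 0.0463, adjusted p = 0.543). NR1H2 (LXR beta) had 50.2 and 38.6 CPM in control and 35.3 and 45.5 CPM in U1_OE libraries and overlapped.

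Levels between genes were compared per kb of exon, as means over the 4 libraries. NPC2 led with 335 CPM per kb, followed by FDPS at 74.1, MSMO1 at 59.0, HMGCS1 at 58.2 and FDFT1 at 42.4 CPM per kb. The ranges over single libraries of FDPS (52.4 to 93.5), MSMO1 (34.6 to 93.9), HMGCS1 (36.9 to 83.0) and FDFT1 (30.4 to 57.5 CPM per kb) overlapped, so the order of these 4 was not resolved. HSD17B7 at 2.52, LBR at 2.91 and MVK at 3.94 CPM per kb were the lowest of the synthesis genes. ABCA1 at 0.603 and ABCG1 at 0.0283 CPM per kb were the lowest of all members.

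The promoters of the members were read from the RefSeq table (GRCh38.p14), which gave 30 of the 34. Each window ran from 250 bases before to 50 bases after the start, and motifs were searched on both strands. NF-Y, which binds CCAAT, and Sp1, which binds GGGCGG, are known partners of SREBP at sterol-responsive promoters. The letters CCAAT stood in 18 of 30 member promoters and in 36.4% of the 11828 matched promoters of tested genes (34.6% of all 35116 promoters). GGGCGG stood in 26 of 30 against 68.1% of tested genes (45.0% of all promoters), and CACGTG, the E-box, in 5 of 30 against 9.74% (7.26%). The core of the sterol regulatory element, TCACNCCAC, stood in 1 of 30, SREBF2 itself, against 1.12% (1.13%). The LXR direct repeat, a pair of AGGTCA words, stood in none of the 30, against 0% of tested genes (0.0199% of all promoters). Only exact words were searched. For words this rare, the counts cannot show whether a member promoter holds a variant of the sterol or LXR element. No match of one motif shared a base with a match of another in the member promoters. CCAAT stood in 12 of 17 synthesis promoters and in 0 of 3 promoters of the export and LXR genes. LSS, MVK, SC5D and DHCR7, whose levels hardly differed, held it as well as HMGCS1, MSMO1 and TM7SF2.

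The 200 bases before the start are shown for the synthesis genes with the lowest values, for SREBF2, and for LBR and ABCA1 as genes that differed from them, 5′ to 3′ on the strand of the gene. Capitals mark CCAAT or its reverse complement ATTGG and, in SREBF2, also the sterol regulatory element core. The stretches are chr5:43313413-43313612, minus strand (HMGCS1), chr4:165327469-165327668, plus strand (MSMO1), chr11:65111672-65111871, plus strand (TM7SF2), chr22:41832905-41833104, plus strand (SREBF2), chr1:225428822-225429021, minus strand (LBR) and chr9:104928156-104928355, minus strand (ABCA1).
HMGCS1: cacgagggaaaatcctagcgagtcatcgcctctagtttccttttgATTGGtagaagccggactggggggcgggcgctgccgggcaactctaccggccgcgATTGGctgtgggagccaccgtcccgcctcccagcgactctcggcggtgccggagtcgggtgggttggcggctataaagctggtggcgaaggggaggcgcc
MSMO1: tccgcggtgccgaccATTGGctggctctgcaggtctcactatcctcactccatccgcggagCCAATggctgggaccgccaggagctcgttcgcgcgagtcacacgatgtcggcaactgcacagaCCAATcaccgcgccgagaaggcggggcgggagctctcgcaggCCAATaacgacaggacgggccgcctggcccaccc
TM7SF2: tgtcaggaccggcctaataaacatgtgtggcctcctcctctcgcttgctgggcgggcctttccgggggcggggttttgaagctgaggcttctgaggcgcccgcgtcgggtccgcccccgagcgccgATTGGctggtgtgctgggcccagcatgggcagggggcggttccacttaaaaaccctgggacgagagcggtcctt
SREBF2: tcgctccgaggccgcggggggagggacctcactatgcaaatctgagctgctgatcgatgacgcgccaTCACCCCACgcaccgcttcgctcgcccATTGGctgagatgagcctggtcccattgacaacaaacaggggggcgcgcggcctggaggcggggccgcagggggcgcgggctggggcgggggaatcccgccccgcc
LBR: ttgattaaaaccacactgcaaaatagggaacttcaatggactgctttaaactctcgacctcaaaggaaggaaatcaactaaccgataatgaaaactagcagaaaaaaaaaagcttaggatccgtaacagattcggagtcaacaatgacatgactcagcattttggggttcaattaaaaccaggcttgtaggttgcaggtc
ABCA1: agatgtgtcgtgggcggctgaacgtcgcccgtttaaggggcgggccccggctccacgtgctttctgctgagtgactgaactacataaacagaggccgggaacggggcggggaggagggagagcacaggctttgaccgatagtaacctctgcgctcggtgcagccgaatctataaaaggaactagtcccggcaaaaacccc
MSMO1 held the CCAAT word at 4 places, starting 185, 139, 76 and 34 bases before the start. HMGCS1 held it at 155 and 100 bases and TM7SF2 once, at 74 bases. In SREBF2 the sterol regulatory element core began 133 bases before the start and the CCAAT word 106 bases before it. The LBR and ABCA1 stretches held neither. GENCODE places the outermost start of each of these 6 genes inside the stretch shown, so RefSeq's start is not the only one. A match is a description of these letters and not of a bound factor.

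The rest of the pathway was read from lists of other genes, again by the edgeR fit over all genes. In the list of SREBP processing and sterol-regulated degradation, 1 of 17 tested genes was lower and 2 were higher at an unadjusted p under 0.05. Of all tested genes 4.72% were lower and 4.36% higher at that threshold. The 2 with the smallest p were SREBF1, which encodes the related factor SREBP1, and RNF145, a sterol-regulated ubiquitin ligase that marks SCAP, and both are known LXR targets. SREBF1 had 33.9 and 39.3 CPM in control and 77.6 and 64.0 CPM in U1_OE libraries (log2 fold change 0.95 ± 0.17, edgeR adjusted p = 0.459; DESeq2 adjusted p = 0.00595). RNF145 had 31.8 and 33.6 CPM against 58.4 and 49.4 CPM (0.72 ± 0.15, edgeR adjusted p = 0.459). Both were well apart between groups and opposite in sign to SREBF2. TMEM97, a SREBP2 target that binds NPC1, was picked after its values were seen, with 24.1 and 14.5 CPM in control and 10.4 and 8.07 CPM in U1_OE libraries.

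Of the fatty acid genes, which SREBP1 and LXR drive, 14 of 20 were positive with a median of 0.10. At an unadjusted p under 0.05, 1 was lower and 2 were higher, against 4.72% and 4.36% of all tested genes. DESeq2 called 1, SCD, as higher, where it called 0.614% of all genes as higher. SCD, the stearoyl-CoA desaturase, had 167 and 155 CPM in control and 256 and 364 CPM in U1_OE libraries (log2 fold change 0.94 ± 0.21, edgeR adjusted p = 0.459; DESeq2 adjusted p = 0.00444). ACACA, acetyl-CoA carboxylase, had 28.8 and 29.0 CPM against 54.1 and 38.1 CPM. The lower gene was FADS3, of the fatty acid desaturase family, named after its values were seen, with 73.0 and 35.8 CPM against 31.0 and 23.4 CPM and a log2 fold change of -1.001 ± 0.38. In the list of other LXR and oxysterol genes 10 of 14 measured genes could be tested. Of the 10, 4 were negative and 6 positive, with a median log2 fold change of 0.04. At an unadjusted p under 0.05, 0 were lower and 1 was higher, against 4.72% and 4.36% of all tested genes. The higher gene was LPCAT3, a phospholipid acyltransferase and LXR target, with 21.1 and 24.8 CPM against 37.0 and 34.4 CPM. CYP27A1, which makes an oxysterol, had 6.95 and 9.51 CPM against 4.62 and 5.71 CPM. Known LXR targets did not all go one way. PLTP, the phospholipid transfer protein, had 140.4 and 167 CPM in control and 121 and 90.3 CPM in U1_OE libraries, and NR1H3 above had a negative value too. The negative value of MYLIP rested on control replicate 2 and was 0.094 without that library.

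**Figure D5:**
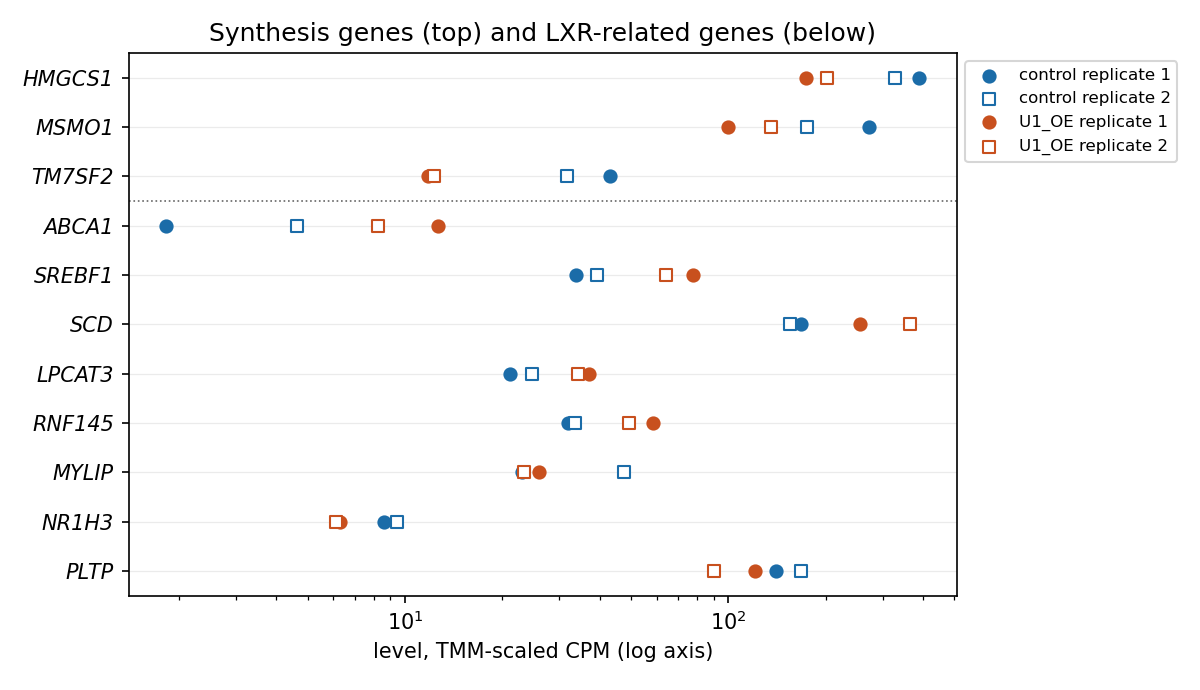
Levels in each library, as TMM-scaled CPM on a log axis, of the 3 synthesis genes farthest below control (above the dotted line) and of genes tied to LXR (below it). ABCA1, SREBF1, SCD, LPCAT3 and RNF145 have both U1_OE libraries above both controls, whereas NR1H3 and PLTP have both below.

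The other sterol and isoprenoid branch genes held 7 negative and 12 positive values among 19. At an unadjusted p under 0.05, 0 were lower and 1 was higher, against 4.72% and 4.36% of all tested genes. ICMT, the methyltransferase of prenylated proteins, had 39.6 and 41.5 CPM in control and 62.8 and 51.8 CPM in U1_OE libraries, and ZMPSTE24, the protease of prenylated lamin A, 37.7 and 40.1 CPM against 45.3 and 47.2 CPM. Of 25 other uptake, transport and storage genes 13 were negative and 12 positive, with 3 lower and 0 higher at that threshold, where 4.72% and 4.36% of all tested genes were. Both U1_OE libraries lay below both controls in 11 of the 25 and above them in 2, against 22.0% and 19.7% of all tested genes.

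Some marker lists of other cells and of dividing cells were set beside these values. The neural progenitor, oligodendrocyte, endothelial and pluripotent lists are not described. The 7 measured astrocyte markers summed to 1193 and 1412 CPM in control and 1018 and 1024 CPM in U1_OE libraries. Of the 4 astrocyte markers tested, 1 was negative and 3 were positive. Of 17 proliferation markers 16 were negative, where 50.7% of all tested genes were, with a median of -0.49. Their summed level was 235 and 299.8 CPM in control and 204 and 251 CPM in U1_OE libraries. In control replicate 1, 0 of the 17 were above control replicate 2, where 17 of the 20 synthesis genes were. U1_OE replicate 1 was below U1_OE replicate 2 for 15 of the 17 and for 16 of the 20. None of these markers was at 0. Of the 17, 4 were lower without overlap, where 22.0% of all tested genes were. At an unadjusted p under 0.05, 1 was lower, the cell cycle kinase CDK1, where 4.72% of all tested genes were. Of 20 mesenchymal markers 16 were positive, with sums of 100713 and 114704 CPM in control and 119882 and 111121 CPM in U1_OE libraries. Of the 20, 12 were higher without overlap and 8 were higher at an unadjusted p under 0.05, where 19.7% and 4.36% of all tested genes were. DESeq2 called 3 of them as higher, where it called 0.614% of all genes as higher. They were the collagen cross-linking enzyme LOX, POSTN and COL6A1 (adjusted p = 7.25e-09, 0.00938 and 0.0381). LOX had 355 and 406 CPM in control and 794 and 846 CPM in U1_OE libraries. Of 12 macrophage and microglia markers 8 had a row, with sums of 50.7 and 60.7 CPM against 78.7 and 97.9 CPM, and CD68, a lysosomal protein, made up most of each sum. TYROBP was at 0 in 3 of the 4 libraries. The 2 adipocyte markers with a row, PLIN1 and FABP4, summed to 0.294 and 0.774 CPM in control and 1.35 and 0.367 CPM in U1_OE libraries. The 16 measured pan-neuronal genes summed to 1349 and 878 CPM in control and 1146 and 1439 CPM in U1_OE libraries, most of it UCHL1. DESeq2 called 3 of them, in both directions, where it called 1.08% of all genes in either direction. The adhesion molecule L1CAM was lower, with 57.5 and 57.3 CPM against 16.57 and 19.97 CPM (adjusted p = 6.94e-08). The tubulin TUBB3 was higher, with 159 and 104 CPM against 264 and 338 CPM (adjusted p = 0.00134), and so was the growth cone protein GAP43, with 3.30 and 1.27 CPM against 46.93 and 11.53 CPM (adjusted p = 4.63e-05). The part of all these markers in the differences of the cholesterol genes was not tested.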

How the data were processed

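RNA-seq libraries of 4 samples were compared, 2 control and 2 U1_OE, grouped by title and genotype label. The authors deposited estimated counts per gene, not normalised. Most are not whole numbers, and no source used here says why. Per the submitters' processing notes, Trim Galore, STAR, featureCounts and DESeq2 were used with hg38, without versions. After rounding to whole numbers, the 17317 genes kept by filterByExpr were tested in R 4.3.3 with edgeR 4.0.16 (TMM, quasi-likelihood test, Benjamini-Hochberg adjustment over all tested genes, threshold 0.05). Standard errors were worked back from the F statistic. Alternatives were DESeq2 1.42.0, limma-voom (limma 3.58.1), the likelihood ratio test, RLE factors, scaling by library size only, all genes unfiltered, a minimum mean of 50 counts, rounding down, a replicate block and each library left out. DESeq2 fits with a block or a library left out were added after the data were seen. The procedures were tested on simulated data for 17317 genes. There the quasi-likelihood test recovered 5% of 2-fold and 54% of 4-fold changes, with 4 false calls. DESeq2 recovered 27% and 68%, with 49 false calls.

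The members and lists were chosen with earlier results of these data known. Every member is named. Full values were given for the 12 members with the smallest unadjusted p, the SREBP2 control genes, ABCA1, ABCG1, MYLIP, NR1H3 and LBR, and in each other list for the 2 genes with the smallest p and any DESeq2 call; 1 gene that this rule names is not reported here. Gene spans, exon lengths and overlaps come from GENCODE v29 on GRCh38. Proteins were not used here.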

Additional observations from a re-analysis of the deposited data

How the results depend on the processing

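With 2 libraries a group, the number of libraries limits every comparison, and depth limits ABCG1 and other genes of a few counts. Over all genes the quasi-likelihood test called 0, DESeq2 189 and the likelihood ratio test 325, and among the members 0, 2 and 2. Members lower at an unadjusted p under 0.05 numbered 5, but 3 with DESeq2, 3 with the replicate block and 3 to 7 with a library left out, where they were 3 without control replicate 1 and 3 without U1_OE replicate 1. Synthesis genes with a negative value numbered 17, and 16 to 17 with a library left out. Their median of -0.34 ranged from -0.52 to -0.14 with a library left out, and from -0.37 with library size alone to -0.32 with DESeq2 among the other settings. DESeq2 called 189 genes, 80 with the replicate block and 55 to 322 with a library left out, and of the members 2, 1 with the replicate block (TM7SF2, while HMGCS1 had an adjusted p of 0.0939) and 0 to 3 with a library left out, where MSMO1 joined without U1_OE replicate 2. Of 234 alternative values of the 18 members followed, 223 kept their direction and side of the threshold, 4 passed it (HMGCS1 and TM7SF2 with DESeq2 and the likelihood ratio test) and 7 turned: INSIG2 to 0.095 without control replicate 1 (range with a library left out -0.44 to 0.095), SCAP to 0.047 without U1_OE replicate 2 (-0.38 to 0.047), MYLIP to 0.094 without control replicate 2 (-0.92 to 0.094), and LBR to -0.033 with library size alone, -0.013 with a mean of at least 50 counts, -0.21 without control replicate 1 and -0.063 without U1_OE replicate 1 (-0.21 to 0.30). The cause was not tested. The labels do not say whether same-numbered libraries belong together. Deviations from the group means of same-numbered libraries correlated at -0.04 over 17317 genes. A single correlation over so few libraries cannot settle the point. A library left alone in its group was taken to vary as the other group does. The planned comparison of protein sequences was not run.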
